A study of Mus musculus with 12 samples.

Results

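The apolipoprotein L (Apol) genes examined here are Apol7a, Apol9a, Apol9b, Apol10a and Apol10b of the mouse. They were chosen by name around Apol10a, a gene selected on its large change between wild-type (WT) and knockout villi, and by presence in the first column of both tables of comparisons that the authors deposited. Of the 5 listed genes, 4 met the second condition (Apol7a, Apol9a, Apol9b and Apol10a) among 6429 genes in all. Apol10b had counting windows but was in neither table, so it is described by position and sequence only. Because Apol10a was picked for its change, its values between the genotypes are a description and carry no test.

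The study measured binding of RNA polymerase II (Pol II) by chromatin immunoprecipitation and sequencing (ChIP-seq) in epithelium of the mouse duodenum, where the small intestine begins. Crypts, which hold stem and dividing cells, and villi, which carry mature absorptive enterocytes, were parted on a filter. Each of 3 groups has 3 Pol II libraries and 1 input library in the labels: WT villus, WT crypt, and villus labelled as a double knockout (DKO) of Hnf4 alpha and gamma. DKO mice received tamoxifen at 50 mg/kg/day for 2 days and their tissue 25 minutes of EDTA, whereas WT mice received oil vehicle without tamoxifen and their tissue 35 minutes, so genotype, tamoxifen and EDTA time cannot be told apart. The labels used here give no age or strain, no driver of the tamoxifen-induced deletion, and no statement of whether libraries came from separate animals, so the errors and p-values below measure the spread between these libraries, which may be technical.

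Apolipoprotein L proteins are lipid-binding proteins that act largely inside cells, in spite of the name they share with the apolipoproteins of blood lipid particles. The family is best known for human APOL1, a serum factor that kills trypanosomes. In the mouse the family has grown by gene duplication into a cluster on one chromosome, and Apol9a and Apol9b are known as genes induced by interferon. HNF4A and HNF4G, the proteins removed in the DKO mice, are nuclear receptor transcription factors of enterocytes.

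The promoters of 4 of the genes are printed because they show which members are near copies of each other and where the letters of an interferon response element occur. Each is 300 bases of RefSeq sequence on build GRCm38.p6, from 250 bases before the start site to 50 after, written 5′ to 3′ on the strand of the gene. The capitals mark matches to the interferon response motif, read on the opposite strand, and in Apol10a also a match to the gamma-activated motif near the 5′ end. The first is Apol10a at chr15:77476797-77477096 on the plus strand, the second Apol10b at chr15:77596076-77596375 on the minus strand, then Apol9a at chr15:77411031-77411330 on the minus strand and Apol9b at chr15:77728822-77729121 on the plus strand.
Apol10a: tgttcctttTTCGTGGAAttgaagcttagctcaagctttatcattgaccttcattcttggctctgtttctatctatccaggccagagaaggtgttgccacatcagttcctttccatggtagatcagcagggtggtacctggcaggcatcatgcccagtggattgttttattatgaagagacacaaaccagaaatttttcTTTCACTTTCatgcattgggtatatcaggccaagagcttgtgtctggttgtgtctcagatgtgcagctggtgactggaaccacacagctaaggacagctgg
Apol10b: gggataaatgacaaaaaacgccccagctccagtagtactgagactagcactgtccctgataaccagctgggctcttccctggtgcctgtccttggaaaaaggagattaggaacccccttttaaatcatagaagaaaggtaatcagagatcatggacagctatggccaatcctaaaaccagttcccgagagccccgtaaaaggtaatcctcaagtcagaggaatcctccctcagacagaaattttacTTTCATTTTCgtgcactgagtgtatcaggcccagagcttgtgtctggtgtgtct
Apol9a: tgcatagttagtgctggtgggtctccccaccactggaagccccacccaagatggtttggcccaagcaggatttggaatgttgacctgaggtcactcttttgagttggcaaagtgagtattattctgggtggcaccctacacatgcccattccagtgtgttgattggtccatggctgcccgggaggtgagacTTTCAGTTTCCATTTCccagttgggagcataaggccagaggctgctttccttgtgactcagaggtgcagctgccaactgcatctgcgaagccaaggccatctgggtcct
Apol9b: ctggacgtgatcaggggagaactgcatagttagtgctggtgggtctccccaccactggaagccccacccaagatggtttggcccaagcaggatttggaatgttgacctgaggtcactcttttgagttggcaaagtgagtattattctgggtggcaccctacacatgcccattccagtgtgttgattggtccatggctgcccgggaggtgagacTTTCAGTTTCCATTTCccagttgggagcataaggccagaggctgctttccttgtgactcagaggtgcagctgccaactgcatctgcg

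Apol9a and Apol9b shared an identical run of 278 of these 300 bases. No other pair among the 5 promoters had an identical run longer than 16 bases, which Apol10a shared with Apol10b. In global alignments the identity of Apol9a with Apol9b was 86.3% of 322 aligned positions, because their windows were set off from each other, and that of the other pairs lay between 46.1% and 53.8%. Per the file headers, the authors required a mapping quality of 30 or more, and a read pair inside such a run has another place of equal match. The deposited values of Apol9a and Apol9b are therefore uncertain, and how reads of their shared stretches were placed was not tested.

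The interferon response motif was searched as GAAA, 2 bases of any kind and GAAA again, on both strands. It was found in the promoters of 4 of the 5 listed genes, that is all but Apol7a, and in 3.44% of 32851 promoters of the same length. Apol10a had a single match starting at position -51 relative to the start site, and Apol10b a single match starting at -4. Apol9a and Apol9b each had an overlapping pair, starting at -59 and -53 in Apol9a and at -37 and -31 in Apol9b. The gamma-activated motif TTCNNNGAA was found in Apol10a alone among the 5, at -241, and in 8.30% of all promoters. The HNF4 letters CAAAGTCCA and CAAAGGTCA, which 0.475% and 0.478% of promoters held, were found in none of the 5 windows, nor were TATAAA (13.6%) or TTTATNG (10.9%), a motif of CDX factors. Only these exact letters were searched. Other spellings of the HNF4 and CDX motifs were not, so the promoters are not shown to lack them. These matches describe letters in short windows and say nothing about binding of a factor.

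In the coordinates of the authors' windows, which the submitters' processing notes place on build mm9, the 5 genes lay on chromosome 15 between 77218147 and 77566312, a span of 348 kb. Apol7a and Apol9a stood at its lower end, from 77218147 to 77229890 and from 77233719 to 77241860 on the minus strand. Apol10a followed on the plus strand from 77307377 to 77320999, Apol10b on the minus strand from 77414088 to 77426905, and Apol9b on the plus strand from 77559402 to 77566312. Counted from the start site of Apol10a toward higher coordinates, those of Apol7a and Apol9a lay at -77.9 kb and -66.0 kb, and those of Apol10b and Apol9b at 119 kb and 252 kb. The windows of these 5 genes overlapped those of no other gene. Each promoter window was 402 bp long and ran over the start site, and the gene body window of Apol10a covered 13173 bp.

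The gene body windows were not laid out alike on both strands. For all 19858 plus-strand transcripts the window began 350 bp past the start site, and the promoter window lay outside it. For all 21190 minus-strand transcripts the window reached 350 bp upstream of the start site and held the promoter window whole. Apol10a and Apol9b belong to the first kind, and Apol7a, Apol9a and Apol10b to the second. The tables of comparisons do not say which window they were counted over, so whether this touches the values below was not tested.

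The targeted genes and the cell markers were read first, as a check of the labels. Hnf4a and Hnf4g both had more Pol II under the DKO label than in WT villi, with log2 changes (WT over labelled-DKO) of -0.54 ± 0.14 (SE) and -1.45 ± 0.22 in the authors' deposited table. These genes therefore showed no loss of Pol II under the DKO label, and directions between genotypes are given as the table is named, with a check on Apol10a further on. Of 15 enterocyte markers 14 were in the tables, and all 14 were called higher in WT villus than in either other group. Their summed level was 19561 normalised counts in WT villus, 7453 in WT crypt and 5685 in labelled-DKO villus. Of 14 immune markers 3 were in the tables (Cd52, Coro1a and Cd74) with summed levels of 425, 309 and 291, and none of 12 endothelial and mesenchymal markers was. Of the immune markers only Cd74 was called, at 1.33 ± 0.24 between the genotypes in the authors' deposited table, while Coro1a was at -0.28 ± 0.25. Of 10 secretory markers 6 were in the tables, and Agr2 (-1.06 ± 0.13) and Spink4 (-0.81 ± 0.10) were called higher in labelled-DKO villus. The other 4 were not called and had changes above 0. These were Muc2 (0.15 ± 0.17), Tff3 (0.17 ± 0.18), Chga (0.12 ± 0.14) and Atoh1 (0.26 ± 0.23). Pcna (-0.62 ± 0.20), the 1 of 10 proliferation markers tested, was called higher in labelled-DKO villus. Of 10 crypt stem markers 2 were tested, Axin2 and Sox9, and neither was called between the genotypes. In bulk chromatin, fewer cells of a type and less Pol II per cell cannot be told apart, and the part that the makeup of the epithelium plays in the Apol values was not tested.

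Apol10a had a mean Pol II signal of 87.7 size-factor-normalised counts over all libraries, at the 25.4 percentile of the 6429 genes. In the authors' deposited table its log2 fold change between WT and labelled-DKO villus was 6.51 ± 0.36 (SE), a 91.1-fold difference. This was the highest value in the table, and the next gene, Ada (adenosine deaminase), stood 2.11 lower at 4.39 ± 0.18. Between WT villus and WT crypt the change of Apol10a was 0.68 ± 0.09, a 1.60-fold higher signal in villus. Its rank among all genes was thus 1 in the first of these comparisons and 517 in the second.

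The deposited tables hold no values per library, so the level of each group was rebuilt from the mean signal and the pair of fold changes, taking the 3 groups as equal in size. For Apol10a this gave 161 normalised counts in WT villus, 100.4 in WT crypt and 1.77 in labelled-DKO villus. The level in labelled-DKO villus was 1.10% of that in WT villus, with a 95% interval of 0.675% to 1.79% from the deposited standard error, and that in WT crypt was 62.4% (55.1% to 70.7%). Both standard errors lay below the counting noise of 3 libraries, as described further on, so these intervals may be too narrow. No other gene had a rebuilt level as low in labelled-DKO villus. The next was Olfr92, an olfactory receptor gene, at 5.74 counts, against 26.5 in WT villus. Apol10a thus had a clear signal in both WT compartments and hardly any in the villi labelled DKO. No input library was used here. Whether this locus gave fewer reads of any kind in the villi labelled DKO was therefore not tested.

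The sign of the comparison of genotypes could be checked on Apol10a itself, because a group near 0 enlarges the standard error of each comparison it is in. With the signs as named the low group is labelled-DKO villus, and counting noise of 3 libraries a group would give a standard error of 0.11 for villus against crypt and of 0.63 for WT against labelled-DKO villus. With the sign between genotypes reversed both WT groups would lie under 3 counts and the first of these would be 0.80. With only the villus to crypt sign reversed the pair would be 0.11 and 0.80, so this check does not decide the sign of the villus to crypt table. The deposited standard errors were 0.09 and 0.36, small for villus against crypt and larger between genotypes. Both were below the noise computed for 3 libraries, by a factor of 0.865 and of 0.568, and the second factor was the lowest of all 6429 genes. Between the genotypes, 1127 genes (17.5%) had a standard error under that noise, and the number of libraries in the authors' fit is not stated.

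**Figure D1:**
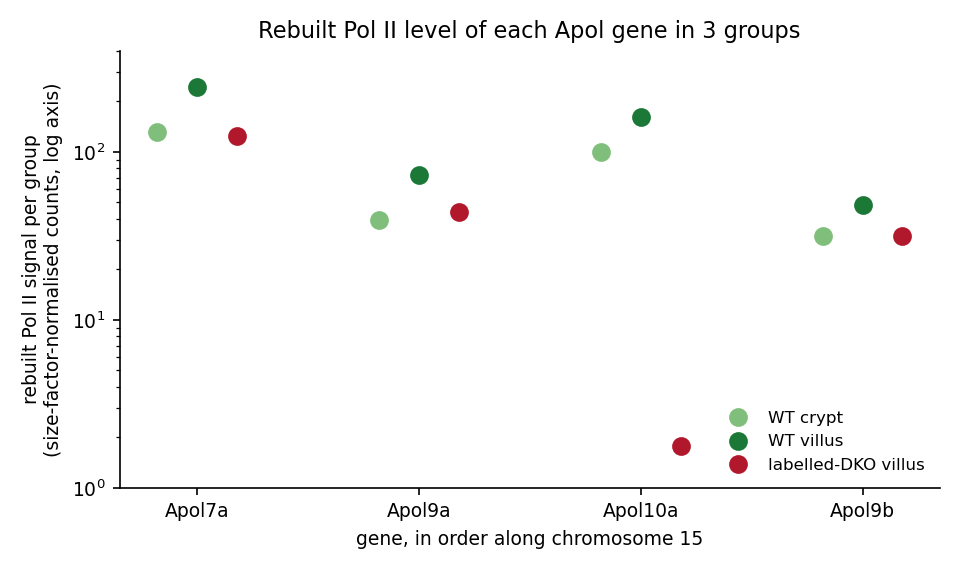
Rebuilt Pol II level of each Apol gene (y axis, size-factor-normalised counts on a log axis) in WT crypt, WT villus and labelled-DKO villus, with 1 point per group and no error bars because the tables hold no values per library. The labelled-DKO point of Apol10a lies at 1.77, while those of the other 3 genes lie beside their WT crypt points.

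Apol7a was the member with the strongest signal, at a mean of 167 normalised counts. Its rebuilt levels were 244 in WT villus, 132 in WT crypt and 125 in labelled-DKO villus. In the authors' deposited tables it was 1.85-fold higher in WT villus than in WT crypt (log2 0.88 ± 0.17, DESeq2 adjusted p of 4.43e-06) and 1.95-fold higher than in labelled-DKO villus (log2 0.97 ± 0.17, DESeq2 adjusted p of 1.67e-07). WT villus was thus the high group, and the others lay close together.

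Apol9a, one of the interferon-induced pair, had a mean signal of 52.0 normalised counts, with rebuilt levels of 72.7 in WT villus, 39.5 in WT crypt and 44.0 in labelled-DKO villus. The authors' deposited tables give changes of 0.88 ± 0.18 over WT crypt (DESeq2 adjusted p of 7.33e-06) and 0.73 ± 0.17 over labelled-DKO villus (DESeq2 adjusted p of 9.14e-05). Apol9b, its near copy, had the lowest mean signal of the 4 genes, 37.2, and the widest errors among the 3 neighbours of Apol10a. Its rebuilt levels were 48.3, 31.4 and 31.8 in the same order of groups. Its changes in the authors' deposited tables were 0.62 ± 0.27 over WT crypt (DESeq2 adjusted p of 0.0587, not called) and 0.60 ± 0.27 over labelled-DKO villus (DESeq2 adjusted p of 0.0474, called). These lie on opposite sides of the threshold of 0.05 with nearly the same size and error, and no difference between them should be read from the calls.

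In all, 3 of the 4 genes were called higher in WT villus than in WT crypt in the authors' deposited table, where 18.6% of all genes were called in that direction. Between the genotypes 4 of 4 were called higher in WT villus, where the background was 22.4%. The set was put together around a change in this second comparison, and nothing is read from its count. The filter that set which genes are in the tables is not given, so the Apol genes left out are not shown to be unchanged.

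**Figure D2:**
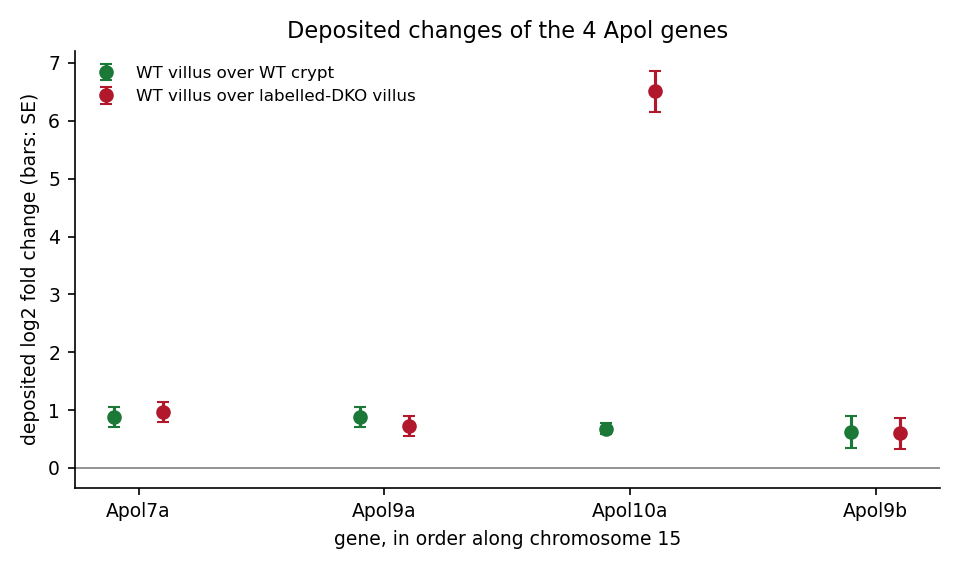
Log2 fold changes of the 4 Apol genes in the authors' deposited tables (y axis), with bars for the standard error, in their order along chromosome 15. The change of Apol10a between genotypes, 6.51, stands apart from the other 7 points, which lie between 0.60 and 0.97.

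The question put to these genes was whether the neighbours of Apol10a share its change. All 4 had changes above 0 between the genotypes, and Apol10a, picked for the size of its change, had the largest of them. In the authors' deposited table the change of WT over labelled-DKO villus was larger at Apol10a by 5.54 on the log2 scale than at Apol7a, by 5.78 than at Apol9a and by 5.91 than at Apol9b. These gaps follow from the choice of Apol10a and are given as a description. Between WT villus and WT crypt the differences of Apol10a from these genes were -0.20, -0.20 and 0.06. Their 95% intervals were -0.72 to 0.32, -0.73 to 0.33 and -0.65 to 0.77. Each used the largest standard error that the deposited errors allow, whatever the correlation between genes. Differences within these bounds between Apol10a and the other 3 genes along the crypt-villus axis were thus not resolved.

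Labelled-DKO villus was then set against WT crypt by subtracting the deposited changes. The standard error used was the largest that the deposited errors allow for independent libraries. Those of Apol10a lay below the counting noise of 3 libraries, so its error here may be too small. Apol10a was lower in labelled-DKO villus than in WT crypt by a log2 difference of -5.83 ± 0.37, a 56.8-fold lower signal and the lowest value of all genes. The next lowest were St3gal4 at -3.13 ± 0.15 and Btnl6 at -3.03 ± 0.17. The difference at Apol10a contains the change between genotypes for which this gene was picked. Its size and rank here are thus a description and carry no test. The other 3 Apol genes were not called, with -0.08 ± 0.25 for Apol7a (95% interval -0.56 to 0.40), 0.15 ± 0.25 for Apol9a (-0.33 to 0.64) and 0.02 ± 0.38 for Apol9b (-0.73 to 0.77). The background in this comparison was 7.19% of genes called higher in WT crypt and 6.41% called higher in labelled-DKO villus. The 14 enterocyte markers had a median of -0.70 and ran from -1.76 to 0.94, beside a median of 0.003 for all genes. Apol10a lay below all 14 markers. Its 3 neighbours lay within the wide range of the markers, but above their median and near that of all genes. No likeness to the enterocyte markers is read from this.

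**Figure D3:**
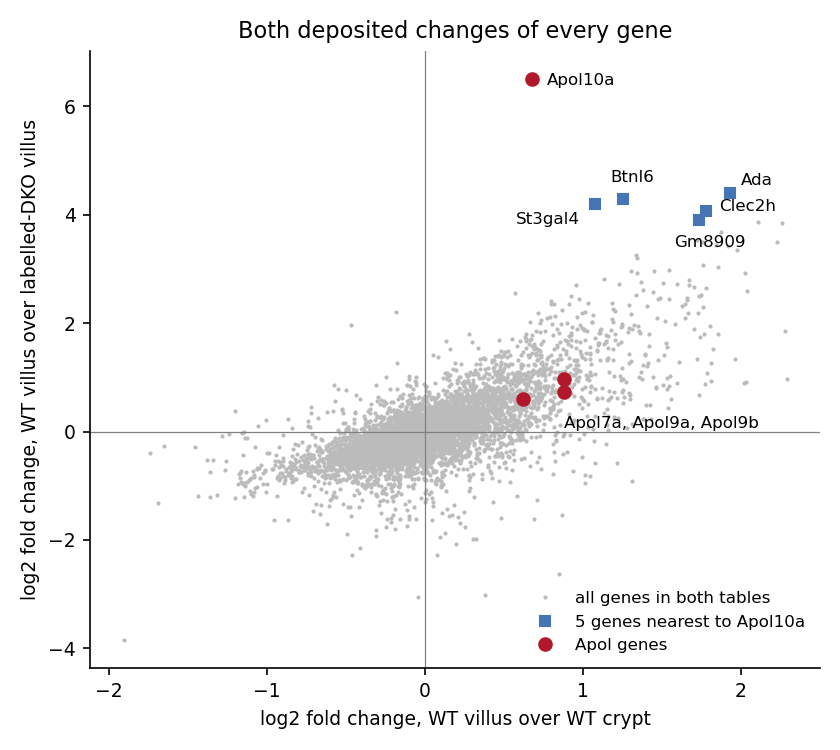
Log2 fold change of WT villus over WT crypt (x axis) and of WT villus over labelled-DKO villus (y axis) in the authors' deposited tables, with 1 point per gene for all 6429 genes. Both axes use the same WT villus libraries, and Apol10a lies above every other gene at a modest villus to crypt change of 0.68, while Apol7a, Apol9a and Apol9b lie inside the cloud.

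By the distance between genes in the plane of both deposited changes, over 3 groups, the 5 genes most like Apol10a were Btnl6, St3gal4, Ada, Clec2h and Gm8909. Btnl6 is a butyrophilin-like gene and Clec2h a C-type lectin-like gene of the intestinal epithelium, and St3gal4 encodes a sialyltransferase. The nearest, Btnl6, had changes in the authors' deposited tables of 1.26 ± 0.09 over WT crypt and 4.29 ± 0.14 over labelled-DKO villus, at a distance of 2.29 on the log2 scale. Even this gene was far from Apol10a, and none of the 5 had a rebuilt level below 18.0 normalised counts in labelled-DKO villus. All 5 had a larger change between villus and crypt than Apol10a, from 1.08 ± 0.10 for St3gal4 to 1.93 ± 0.18 for Ada.

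The windows name 14 Apol genes. Of these 12 lay on chromosome 15 and 10 within the span of the listed genes, while Apol7d lay on chromosome 1 and Apold1, which shares the apolipoprotein L domain, on chromosome 6. The 10 genes that were not in the tables were Apol6, Apol7b, Apol7c, Apol7d, Apol7e, Apol8, Apol10b, Apol11a, Apol11b and Apold1. The nearest on either side of Apol10a, Apol7b and Apol11a with start sites at -29.6 kb and 31.2 kb, are among them, so the genes closest to Apol10a were not analysed here. A second copy of the Apol7b window coincided with the promoter window of Apol7e.

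Beyond the family, 16 genes had windows within 500 kb of the span, of which 5 were in the tables. By DESeq2 0 of the 5 were called higher in WT villus in either of the authors' deposited tables, and all 10 of their changes were below 0. Of all genes, 18.6% were called higher in WT villus than in WT crypt and 22.4% higher than in labelled-DKO villus. Among 5 genes a count of 0 is not far from these shares, and nothing is read from it. Myh9, the heavy chain of a nonmuscle myosin, began 365 kb above Apol10a and was lower in WT villi than in labelled-DKO villi, at -0.54 ± 0.13 with a DESeq2 adjusted p of 9.78e-05 (the authors' deposited table). Eif3d, a translation initiation factor subunit, was lower in WT villus both than in labelled-DKO villus, at -0.34 ± 0.11, and than in WT crypt, at -0.35 ± 0.11. Txn2, the mitochondrial thioredoxin, was lower in WT villus than in WT crypt at -0.33 ± 0.11 and not called between genotypes at -0.11 ± 0.11. On the other side, Rpl8, a ribosomal protein gene, was lower in WT villi than in labelled-DKO villi at -0.48 ± 0.21, and 1110038F14Rik was called in neither table.

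In counts, 2 of the 5 were called lower in WT villus than in WT crypt, where 18.8% of all genes were, and 3 of the 5 lower than in labelled-DKO villus, where 29.5% were. The count depends on the distance. How many genes were tested within 1 Mb was not counted, so no share is read there. Of them 11 were called higher in WT villi than in labelled-DKO villi and 5 lower. More were thus called higher than lower, the reverse of all genes (22.4% higher, 29.5% lower) and of the counts within 500 kb (0 and 3). No test of these counts was made. Among the 11 were Slc39a4, a zinc transporter, at 2.72 ± 0.21 and Gpt, alanine aminotransferase, at 2.51 ± 0.15 in the authors' deposited table. Both were named after their values were seen, and their windows lay 770 kb and 689 kb outside the span.

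**Figure D4:**
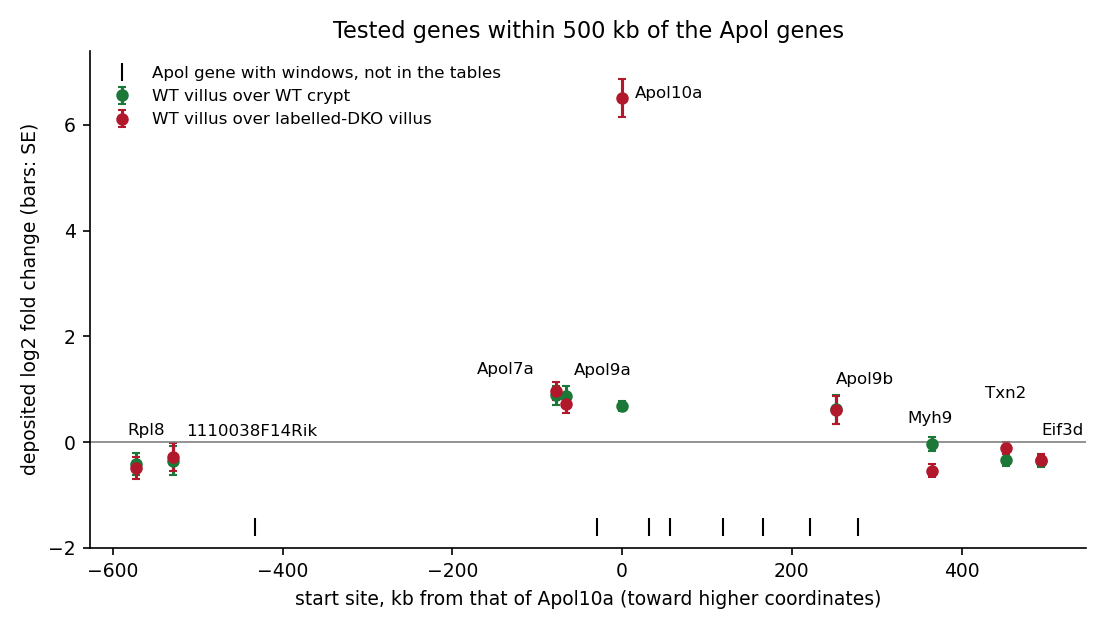
Deposited log2 fold changes (y axis, bars for the standard error) of the 9 tested genes with windows within 500 kb of the Apol span, by distance of their start site from that of Apol10a (x axis, kb). Black ticks mark the 8 Apol genes of chromosome 15 that were not in the tables, and the red point at 6.51 is Apol10a.

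Since Apol9a and Apol9b are known interferon-induced genes and most of the listed promoters held the motif, other genes of that pathway were read from a list drawn from textbook knowledge. Interferons bind receptors that signal through JAK kinases to transcription factors that bind the response element in target promoters. Of 66 interferon-stimulated genes 39 were in the tables. By DESeq2 in the authors' deposited table, 9 of the 39 were called higher in WT villus than in WT crypt and 0 lower (0 lower at an unadjusted p under 0.05), beside 18.6% and 18.8% of all genes, with a median of 0.22 against -0.04 for all genes. The largest such change was at Irf1, an interferon-regulated transcription factor, at 0.95 ± 0.17. In the comparison of genotypes 10 were called with more signal in WT villus and 4 with more in labelled-DKO villus, beside 22.4% and 29.5% of all genes, with a median of 0.13 against -0.08. The highest was Ifi27l2b, at 1.99 ± 0.19, and the lowest Trex1, a DNA exonuclease, at -0.81 ± 0.17. Of the 39 genes, 25 were not called between the genotypes.

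Of 16 receptor and signalling genes of the same pathway 15 were in the tables, and 3 of the 16 also stood on the longer list. Between WT villus and WT crypt 7 of the 15 were called higher in villus and 1 lower in the authors' deposited table, beside 18.6% and 18.8% of all genes. The extremes were Socs3, a feedback inhibitor of JAK signalling, at 1.30 ± 0.24, and Tyk2, a receptor-bound kinase, at -0.23 ± 0.08. Against labelled-DKO villus 7 were also called higher, with Ifngr2, a chain of the interferon gamma receptor, highest at 0.79 ± 0.11. A further 2 were called lower, Tyk2 at -0.21 ± 0.07 and Jak1 at -0.25 ± 0.08. All genes were called in these directions at 22.4% and 29.5%. Between genotypes both lists thus held calls in each direction. More of their calls were higher in WT villus, while among all genes more were lower. No test of either list was made.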

How the data were processed

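The authors deposited a pair of comparison tables in the DESeq2 results format and, per the file headers, featureCounts 2.0.3 window tables of read pairs (mapping quality at least 30, duplicates ignored, no strand option). The submitters' processing notes name DESeq2 1.36.0 and mm9. Each table gives a mean signal over all libraries, in counts divided by size factors, as deposited. The deposited log2 fold change and its standard error are on the log2 scale, the deposited Wald score equalled their ratio to within 1.78e-07, and the deposited adjusted p-value equalled the Benjamini-Hochberg adjustment over 6429 genes to within 3.76e-07. The window counted, the gene filter, any shrinkage and the number of libraries fitted are not given in the sources used here. The 18 count columns carry no names, could be matched to no sample and were not used, so depth per library is unknown and the planned edgeR test of counts per library was not run. Of 44308 promoter and 41048 gene body windows, 44159 and 40915 were matched to symbols through RefSeq.

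Group levels, differences between tables, intervals and alternatives (listed in the closing section, one of them chosen after seeing the data) were computed with Python 3.11.15, scipy 1.17.1 and Biopython 1.88. Tests on simulated data were run first. Genes were named by rule: the listed genes, family and neighbours in the tables, the 5 nearest to Apol10a, and the extremes of each list. Protein identity was planned and not analysed here. The members and lists were chosen with earlier results of these data known. Values of 1 listed gene are not reported here.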

Additional observations from a re-analysis of the deposited data

How the results depend on the processing

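The count of 3 Apol genes called higher in WT villus than in WT crypt became 0 when a log2 fold change beyond 1 was required or the test was made against changes up to 0.5, and that of 4 called higher than in labelled-DKO villus became 1, Apol10a, under both. Centring moved Apol9b to 0.66 between villus and crypt, past the threshold with an adjusted p of 0.0434 by the DESeq2 Wald statistic recomputed over all genes. Both counts stayed within 1.5 times of these values with an adjusted p under 0.01, with centring, and with the standard error raised to the counting noise of 3 libraries, the last chosen after seeing the data. The 1 gene called lower in labelled-DKO villus than in WT crypt was also 1 with a rebuilt standard error and with centring. Neighbours called lower in WT villi than in labelled-DKO villi numbered 1 within 100 kb and 5 within 1 Mb in place of 3, and those called higher 11 within 1 Mb in place of 0. Neighbours called lower in WT villus than in WT crypt numbered 0 within 100 kb, and 1 with an adjusted p under 0.01, in place of 2, and those called higher 8 within 1 Mb in place of 0. A wider window holds more genes, whose number was not counted, so these counts are not read as shares. With an adjusted p under 0.01, 2 interferon-stimulated genes were called lower in WT villi than in labelled-DKO villi in place of 4. Of the 5 genes most like Apol10a, 2 (Btnl6 and St3gal4) were kept when distances were divided by standard errors. On the given strand alone 0 of the 4 promoters kept an interferon match. No paired analysis was possible because values per library could not be matched to samples. Leaving out each replicate, other tools and other filters were not run for the same reason, and group sizes other than equal were not tried.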
